A study of Drosophila melanogaster with 17 samples.

Results

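Drosomycin (Drs, CG10810), metchnikowin (Mtk, CG8175), defensin (Def, CG1385) and 6 immune-induced molecule peptide genes, IM1 (CG18108), IM2 (CG18106), IM3 (CG16844), IM4 (CG15231), IM10 (CG18279) and IM23 (CG15066), were examined in fat bodies of Drosophila melanogaster larvae. The 9 genes were taken by their accessions or, for IM3, by name from the 14659 rows of the deposited expression matrix. All 9 were found, and their values are FPKM, sequenced fragments scaled to library size and already divided by transcript length. Current gene names differ for 6 of them: IM1, IM2 and IM3 are the short bomanins BomS1, BomS2 and BomS3, IM23 is the bicipital bomanin BomBc1, IM4 is Daisho 1 (Dso1), and IM10 is a copy of Baramicin A (BaraA2).

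The fat body is the main source of the peptides that flies release into the blood on infection. In the Toll pathway, recognition of fungi and of many Gram-positive bacteria by PGRP-SA and the GNBP proteins starts a protease cascade that matures the ligand Spätzle (spz). The ligand binds the receptor Toll (Tl), the adaptors Myd88 and Tube and the kinase Pelle relay the signal, and loss of the inhibitor Cactus frees the transcription factors Dif and Dorsal. The Imd pathway, triggered by other bacteria, acts through Relish (Rel) and controls diptericins, attacins, cecropins and drosocin. Drs and the bomanins are standard readouts of Toll, whereas Mtk and Def respond to both pathways.

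Female wandering third-instar larvae were reared at 25C from hatching on semi-defined food with 0.7 M sucrose (high sugar) or 0.15 M sucrose (control diet), and total RNA of the fat body was sequenced. Knockdown larvae carried UAS-ChREBPi(52606), which expresses interfering RNA against the sugar-responsive transcription factor ChREBP (Mondo in flies), together with cgGAL4 and UAS-Dcr2. Wild-type larvae were VDRC w1118 with cgGAL4 and UAS-Dcr2, so both genotypes carried the driver and the extra Dicer-2, and no construct against an unrelated gene was part of the design. The cg driver is active in fat body and in hemocytes, the blood cells. There were 2 knockdown libraries and 6 wild-type libraries on high sugar, and 3 knockdown libraries and 6 wild-type libraries on the control diet, named biological replicates by the labels. Replicates 1 to 3 of each group share 1 barcode within the group and include every knockdown library (shared-barcode libraries), while wild-type replicates 4 to 6 have a barcode each (own-barcode libraries). The labels give no run or date for these sets.

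The transcript of the targeted gene, dmondo, averaged 0.236 ± 0.0696 FPKM in knockdown and 2.51 ± 0.385 FPKM in wild type on high sugar (SD, n = 2 and 6). With 0.15 M sucrose it averaged 0.439 ± 0.116 FPKM in knockdown and 1.47 ± 0.283 FPKM in wild type (SD, n = 3 and 6). Column totals of the matrix ranged over 29778.6 to 62263.5 FPKM, with 6500 to 8360 genes above 0, and read depth is not known. All 7 fat body markers (larval serum proteins, Fbp1, Fbp2 and apolipophorin) were above 0 in every library. Their summed level was 2370 to 2730 FPKM in knockdown on high sugar and 6900 to 12200 FPKM in wild type on high sugar, and with 0.15 M sucrose it was 7800 to 9170 FPKM in knockdown and 5270 to 9570 FPKM in wild type. Some libraries stood apart: both high-sugar knockdown libraries had the steepest fall of values with transcript length, and wild-type high-sugar replicate 5 held the highest immune peptide values of its set.

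Drs was by far the most abundant member, with a mean of 62.2 ± 38.7 FPKM over the 17 libraries (SD). Mtk followed with 17.9 FPKM, then IM2 with 7.90, IM3 with 7.06, IM10 with 6.33, IM1 with 4.70 and IM4 with 1.45 FPKM, while Def (0.564 FPKM) and IM23 (0.550 FPKM) were near 0. The SDs of IM2, IM3, IM10 and IM1, between 6.98 and 9.38 FPKM, exceeded the gaps between their means, so the order among these 4 genes was within their spread. Drs was the highest of the 9 in 15 libraries and Mtk in the other 2, both of them high-sugar knockdown libraries. With a mean of at least 1 FPKM required for testing, 7 members entered the fit and Def and IM23 did not. IM4 passed only through the control-diet knockdown libraries, which averaged 4.28 FPKM, and without them its mean lay below that minimum. Its tests and its place in counts of tested members therefore rest on values that the filter used.

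**Figure D1:**
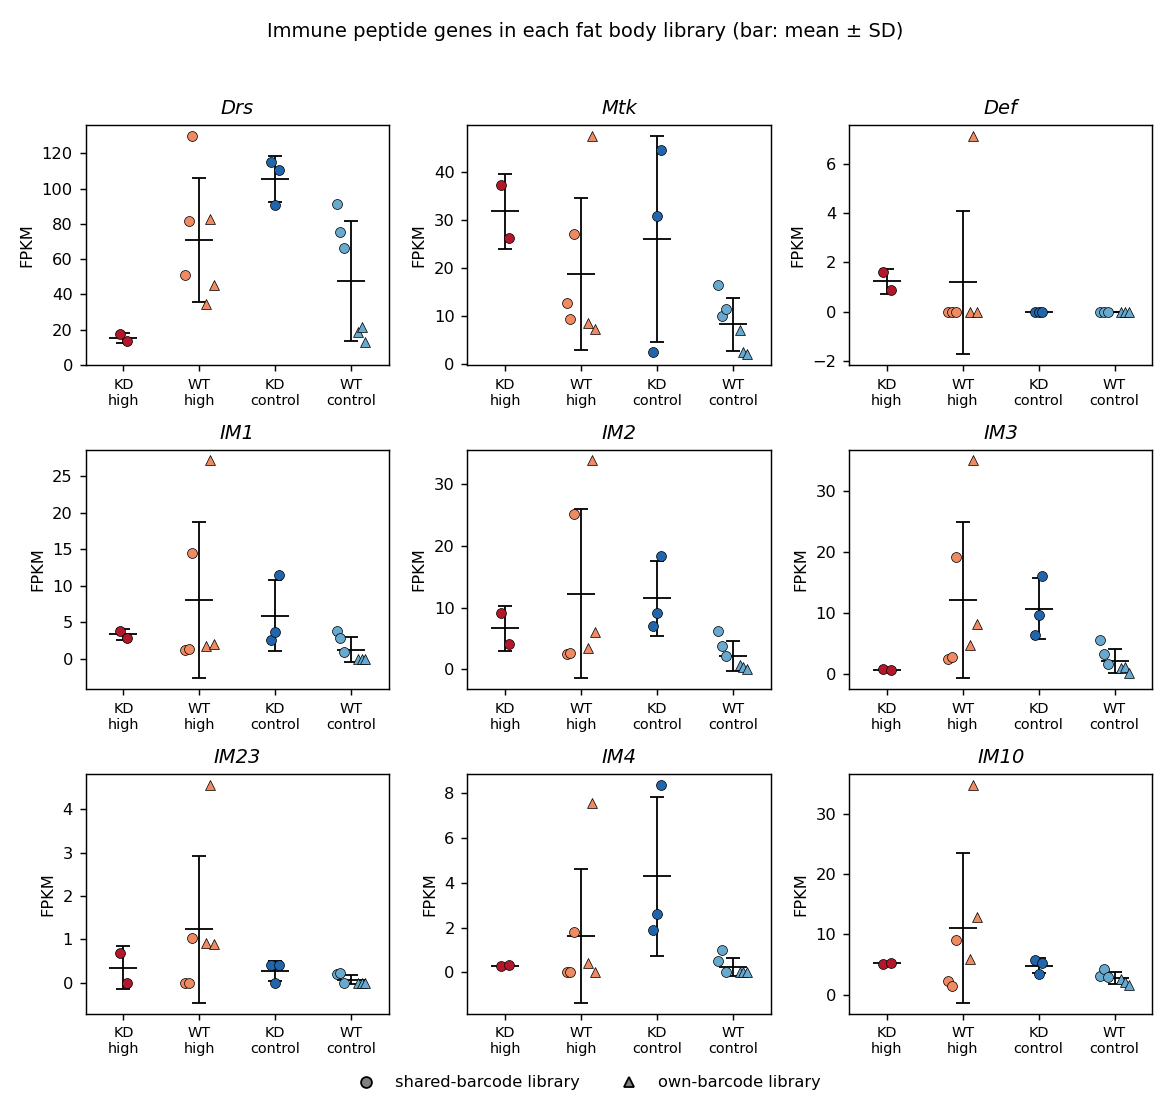
FPKM (linear axes, 1 panel a gene) of the 9 genes in knockdown (KD) and wild-type (WT) libraries on high sugar and control diet; each point is 1 library, circles share a barcode within the group, triangles have their own, and bars are mean ± SD. Drs lay at 13.3 and 17.3 FPKM in the KD high-sugar libraries, below every WT high-sugar library, and WT high-sugar replicate 5 (the highest triangle) topped the own-barcode libraries for each gene.

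Drosomycin, an antifungal peptide with a disulphide-stabilised fold, was low in both high-sugar knockdown libraries. On high sugar it stood at 17.3 and 13.3 FPKM in knockdown, against 51.0, 81.5 and 130 FPKM in the shared-barcode and 34.5, 82.5 and 45.2 FPKM in the own-barcode wild-type libraries. The groups did not overlap, since the lowest wild-type library, at 34.5 FPKM, lay above both knockdown libraries. Among all tested genes 29.3% were lower and 29.6% higher in both knockdown libraries than in every wild-type library on high sugar, so a separation of this kind was common, and of the 7 tested members Drs and IM3 showed it. With 0.15 M sucrose, knockdown gave 115, 90.8 and 111 FPKM, against 91.1, 75.6 and 66.1 FPKM in shared-barcode and 18.5, 21.6 and 13.0 FPKM in own-barcode wild type. The high-sugar knockdown libraries were thus below all control-diet knockdown libraries, and they lay in the range of the own-barcode wild type on the control diet. Within knockdown 3 of the 7 tested members (Drs, IM3 and IM4) were lower in both high-sugar libraries than in every control-diet library and none higher, against 36.8% lower and 36.1% higher among all tested genes. IM4 is among the tested members only through those control-diet knockdown libraries.

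Metchnikowin, a proline-rich peptide active against fungi and some bacteria, showed no such separation. On high sugar it had 37.3 and 26.4 FPKM in knockdown, against 12.7, 9.50 and 27.2 FPKM in shared-barcode and 8.58, 47.5 and 7.38 FPKM in own-barcode wild type. Control-diet knockdown libraries held 2.60, 30.8 and 44.7 FPKM, against 16.4, 10.1 and 11.6 FPKM in shared-barcode and 7.22, 2.58 and 2.17 FPKM in own-barcode wild type. The groups overlapped on both diets, and the 3 knockdown libraries on the control diet spanned nearly the whole range of the series. Defensin, active mainly against Gram-positive bacteria, was at 1.59 and 0.860 FPKM in the high-sugar knockdown libraries and at 7.14 FPKM in wild-type high-sugar replicate 5, and it was listed at 0 in the other 14 libraries.

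IM1, IM2 and IM3 are short bomanins, peptides that flies need to survive infections handled by Toll, and they lie near each other in the genome. From BomBc1 to BomS3, RefSeq (Release 6 plus ISO1 MT) gives the order BomBc1, BomS1, BomS4, BomBc2, BomS2 and BomS3. The ends of this stretch were set by members, so any bomanin outside it is not listed. IM3 had 0.924 and 0.642 FPKM in knockdown on high sugar, against 2.59, 2.93 and 19.2 FPKM in shared-barcode and 4.89, 35.1 and 8.22 FPKM in own-barcode wild type. Knockdown on the control diet gave 6.43, 9.74 and 16.2 FPKM, against 5.59, 3.32 and 1.75 FPKM in shared-barcode and 0.965, 1.23 and 0.269 FPKM in own-barcode wild type. IM3 therefore separated knockdown from wild type on high sugar with no overlap, as Drs did, and it separated them in the other direction on the control diet. On that diet 3 of the 7 tested members (IM2, IM3 and IM4) were higher in every knockdown library than in every wild-type library and none lower, against 7.51% higher and 5.46% lower among all tested genes. IM4 passed the filter only through these same knockdown libraries.

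IM2, its neighbour, had 9.16 and 4.10 FPKM in knockdown on high sugar, against 2.45, 2.63 and 25.2 FPKM in shared-barcode and 3.39, 33.9 and 6.03 FPKM in own-barcode wild type. With the control diet IM2 had 6.95, 9.16 and 18.4 FPKM in knockdown, against 6.17, 3.74 and 2.10 FPKM in shared-barcode and 0.640, 0.377 and 0 FPKM in own-barcode wild type. On high sugar the knockdown values lay inside the wild-type range, and on the control diet they lay above it. IM1 had 3.84 and 2.81 FPKM in knockdown on high sugar, against 1.24, 1.31 and 14.5 FPKM in shared-barcode and 1.80, 27.2 and 2.07 FPKM in own-barcode wild type. IM1 had, with 0.15 M sucrose, 2.61, 3.60 and 11.5 FPKM in knockdown, against 3.82, 2.81 and 0.862 FPKM in shared-barcode wild type, and it was listed at 0 in all 3 own-barcode libraries. IM1 overlapped between genotypes on both diets. IM23, the low member of this stretch of genes, reached 0.695 FPKM in 1 high-sugar knockdown library and was listed at 0 in the other, against 0 to 4.56 FPKM with a median of 0.909 FPKM in wild type on high sugar, and it did not pass 0.414 FPKM on the control diet.

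IM4 (Daisho 1), a short peptide with a known role against Fusarium, had 0.282 and 0.320 FPKM in knockdown on high sugar, against 0 to 7.53 FPKM in wild type with a median of 0.210 FPKM. On the control diet it had 1.89, 2.60 and 8.36 FPKM in knockdown, against 0.499, 0.980 and 0 FPKM in shared-barcode wild type and 0 in all own-barcode libraries. Control-diet knockdown was above control-diet wild type with no overlap, at levels low enough that 7 of the 17 libraries were listed at 0. IM10, which encodes a precursor cut into several antifungal peptides, had 5.16 and 5.28 FPKM in knockdown on high sugar, against 2.34, 1.42 and 9.08 FPKM in shared-barcode and 5.90, 34.8 and 12.8 FPKM in own-barcode wild type. On the control diet IM10 had 5.70, 3.41 and 5.31 FPKM in knockdown, against 3.13, 4.32 and 2.88 FPKM in shared-barcode and 2.53, 2.10 and 1.57 FPKM in own-barcode wild type. The genotypes overlapped on both diets. IM10 and CG33470 (BaraA1), a near-identical copy, stood in a ratio of 0.841 to 0.967 in every library, so the 2 rows may divide the same reads and are uncertain as separate genes.

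On high sugar most members had their highest wild-type value in 1 library of each barcode set. Wild-type high-sugar replicate 5 was the highest own-barcode library for 9 of 9 members and for 11 of 11 Imd-type peptides (diptericins, attacins, cecropins and drosocin). Replicate 3 was the highest shared-barcode library on that diet for 8 of 9 members, the exception being Def at 0 throughout, and for 10 of 11 Imd-type peptides. Among control-diet knockdown libraries replicate 3 led for 6 of 9 members and 10 of 11 Imd-type peptides, and between the high-sugar knockdown libraries replicate 1 was the higher for 7 of 9 members and 7 of 11 Imd-type peptides. Control-diet wild type was divided. In its shared-barcode set replicate 1 was highest for 5 members and replicate 2 for 3, while 9 of 11 Imd-type peptides peaked in replicate 2. In its own-barcode set replicate 4 was highest for 3 members and replicate 5 for 2, while 10 of 11 Imd-type peptides peaked in replicate 4. The summed level of the 9 members was 53.7 to 76.3 FPKM in knockdown on high sugar, against 72.3 to 228 FPKM in shared-barcode and 60.4 to 280 FPKM in own-barcode wild type on the same diet. It was 142 to 216 FPKM in knockdown on the control diet, against 85.2 to 127 FPKM in shared-barcode and 17 to 29.9 FPKM in own-barcode wild type.

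Knockdown was first compared with wild type on high sugar, which asks how the genotypes differ on that diet. Drs was lower in knockdown by a log2 change of -2.70 ± 0.44 and IM3 by -2.44 ± 0.83 (SE), with limma adjusted p = 0.00011 and 0.0205. No member was called higher, so 2 of the 7 tested were called lower, on a background in which 27.2% of all tested genes were called higher and 33.4% lower at adjusted p below 0.05. A share of 2 in 7 is close to that background. Mtk (0.63 ± 0.92), IM1 (-0.56 ± 0.99), IM2 (-0.54 ± 0.95), IM4 (-0.42 ± 0.74) and IM10 (-0.06 ± 0.72) were not called, with limma adjusted p between 0.569 and 0.944, and their errors allow changes of either sign. The median over the tested members was -0.54, against -0.08 over all tested genes. Within the shared-barcode set alone, Drs changed by -2.35 (limma adjusted p = 9e-05) and IM3 by -1.89 (limma adjusted p = 0.0497). The IM3 call was lost on leaving out wild-type high-sugar replicate 3 (limma adjusted p = 0.051) or either knockdown library (0.0713 and 0.101), whereas the Drs call held in every setting run, with log2 changes of -3.42 to -2.01.

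**Figure D2:**
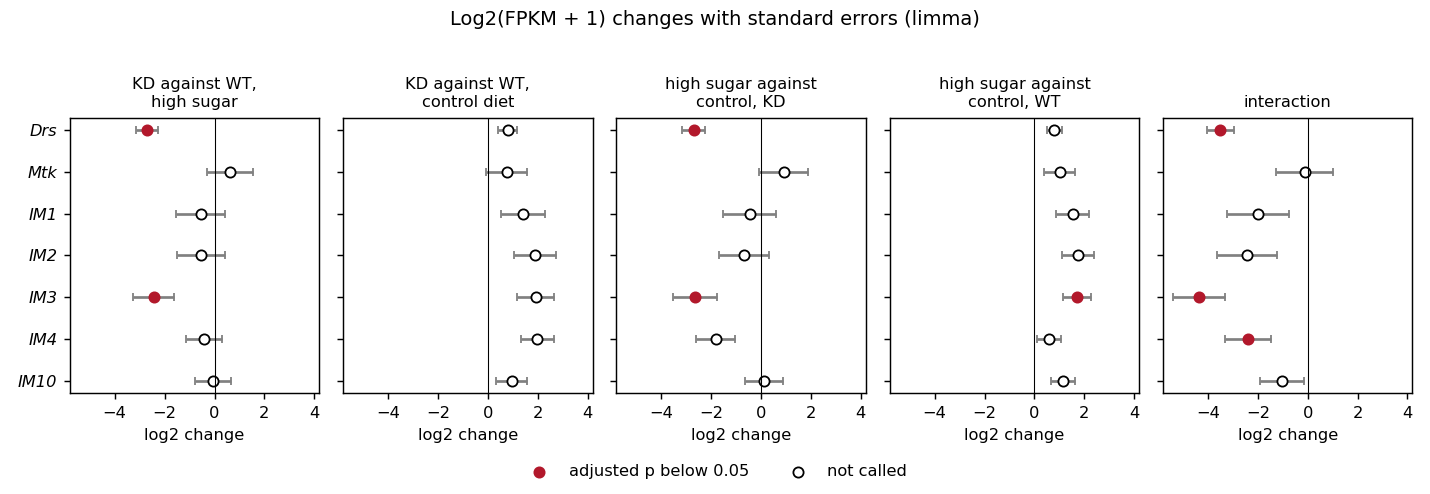
Log2(FPKM + 1) change ± SE of the 7 tested genes in 5 comparisons (limma, horizontal axes in log2 units, KD knockdown, WT wild type); filled points passed an adjusted p of 0.05. Drs and IM3 fell on high sugar in knockdown, and Mtk lay near 0 in the interaction at -0.12.

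High sugar was then compared with the control diet within knockdown. Drs fell by 2.71 ± 0.47 and IM3 by 2.64 ± 0.88 on the log2 scale (limma adjusted p = 0.000166 and 0.0176). These were 2 of 7 members, with none called higher, where 29.2% of all genes were called higher and 31.1% lower. IM4 changed by -1.82 ± 0.78 (limma adjusted p = 0.0553), and Mtk (0.90 ± 0.97), IM1 (-0.46 ± 1.05), IM2 (-0.69 ± 1.0) and IM10 (0.12 ± 0.76) were far from the threshold. The members' median was -0.69, and that of all genes 0.01. IM4 entered this comparison, too, only through its control-diet knockdown values. Without control-diet knockdown replicate 3 or either high-sugar knockdown library the IM3 adjusted p was 0.0572, 0.0591 or 0.0873, and Drs stayed called. This comparison and the one before share the same 2 knockdown libraries, so they are not independent.

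The interaction asks whether the sugar effect differs between the genotypes. It was -3.50 ± 0.55 for Drs, -4.37 ± 1.04 for IM3 and -2.41 ± 0.92 for IM4 (limma adjusted p = 0.000133, 0.00299 and 0.0402). These 3 of 7 members were called lower and none higher, against 28.3% lower and 23.5% higher among all genes. IM4 was tested only because of its control-diet knockdown values, which also enter this effect, so its call is not independent of the filter. IM2 (-2.44 ± 1.19, limma adjusted p = 0.0996), IM1 (-1.99 ± 1.24), IM10 (-1.02 ± 0.89) and Mtk (-0.12 ± 1.15) did not pass. The median of the members was -2.41, against -0.03 for all genes. This median is the value of IM4 itself, so it is not independent of the filter either. With a mean for each group and barcode set, which uses only shared-barcode wild type as the partner of knockdown, the interaction was -2.79 for Drs (limma adjusted p = 0.00042), -3.27 for IM3 (0.019) and -1.79 for IM4 (0.16), so the IM4 call was lost. With pseudocounts of 0.1 and 0.01, no filter on low values, the replicate block, or shared-barcode libraries only, IM4 likewise did not pass, at log2 changes of -4.30, -5.18, -2.41, -2.16 and -1.79 (limma adjusted p = 0.102, 0.252, 0.0618, 0.0651 and 0.083). The call was lost, too, without wild-type control-diet replicate 3, 4, 5 or 6, wild-type high-sugar replicate 3, control-diet knockdown replicate 3 or either high-sugar knockdown library (limma adjusted p = 0.0561 to 0.112).

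On the control diet no member differed between knockdown and wild type at the threshold, while 3.02% of all genes were called higher and 2.6% lower. All 7 log2 changes were above 0, from 0.76 to 1.99, with limma adjusted p between 0.0936 and 0.664, and 3 members had an unadjusted p below 0.05. The largest values were 1.99 ± 0.65 for IM4, 1.93 ± 0.74 for IM3 and 1.90 ± 0.84 for IM2, and Drs had 0.80 ± 0.39. The median was 1.42, against -0.03 over all genes. IM4 passed the filter only through the knockdown libraries compared here. Its change and p-values, and its part in the count of 3 and in the median, therefore rest on values that the filter used. Within the shared-barcode set Drs changed by 0.44 and IM3 by 1.38 (limma adjusted p = 0.47 and 0.259). Without wild-type high-sugar replicate 5, which takes no direct part in this comparison but enters the shared estimate of spread, IM4 passed with a log2 change of 1.74 (limma adjusted p = 0.0256).

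In wild type the effect of high sugar was called for IM3 alone, at 1.72 ± 0.56 (limma adjusted p = 0.0498), 1 of 7 members where 9.44% of all genes were called higher and 6.08% lower. All 7 log2 changes were above 0: IM2 had 1.76 ± 0.64, IM1 1.53 ± 0.66, IM10 1.14 ± 0.48, Mtk 1.02 ± 0.62, Drs 0.79 ± 0.30 and IM4 0.59 ± 0.49, with limma adjusted p from 0.0771 to 0.454. The members' median was 1.14, against 0.02 for all genes. The IM3 call rested close to the threshold and was lost in 14 of 17 fits that each left out 1 library, with limma adjusted p up to 0.119. It held without wild-type control-diet replicate 1 or wild-type high-sugar replicate 1 or 2.

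The wild-type sugar effect was next taken within each barcode set. Among own-barcode libraries 5 of 7 members were called higher on high sugar and none lower, against 21.4% and 12.1% of all genes. The log2 changes were 2.96 ± 0.81 for IM2, 2.82 ± 0.70 for IM3, 2.64 ± 0.88 for IM1, 2.31 ± 0.54 for IM10 and 1.49 ± 0.33 for Drs (limma adjusted p = 0.0128, 0.00763, 0.0342, 0.00512 and 0.00345). Mtk (1.79 ± 0.86) and IM4 (1.20 ± 0.69) were not called, at limma adjusted p = 0.128 and 0.202. Each own-barcode library on high sugar exceeded each on the control diet for 6 of the 7 tested members (Drs, Mtk, IM1, IM2, IM3 and IM10) and for none the other way, against 32.4% and 18.5% of all tested genes. IM23, not tested, also separated, at 0.893 to 4.56 FPKM on high sugar and listed at 0 in the 3 control-diet libraries. Without wild-type high-sugar replicate 5 the changes of Drs (1.14), IM3 (2.06) and IM10 (1.68) were still called (limma adjusted p = 0.0185, 0.0348 and 0.0211), and those of IM2 (2.08) and IM1 (1.55) were not (0.0611 and 0.146). The IM1 call was also lost without any 1 of the own-barcode control-diet libraries (limma adjusted p = 0.0693 to 0.0814).

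Among shared-barcode libraries no member was called, where 1.68% of all genes were called higher and 4.7% lower. The log2 changes ran from -0.03 for IM4 to 0.62 ± 0.70 for IM3, with 0.08 ± 0.33 for Drs, limma adjusted p between 0.722 and 0.987, and no member at an unadjusted p below 0.05. Of the shared-barcode libraries on high sugar, replicates 1 and 2 held IM1 and IM2 below 2 of the 3 control-diet libraries, and replicate 3 held them above all 3. The difference of the 2 effects, own-barcode minus shared-barcode, was called for Drs (1.41 ± 0.47, limma adjusted p = 0.0499) and IM10 (2.33 ± 0.76, limma adjusted p = 0.048). These were 2 of 7 members, where 13.7% of all genes had a higher and 6.17% a lower effect in the own-barcode set. The other 5 differences were between 1.23 and 2.42 on the log2 scale and not called. Both calls lay at the threshold and were lost on leaving out any single library other than wild-type high-sugar replicate 3 or 4 (limma adjusted p = 0.0527 to 0.115).

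**Figure D3:**
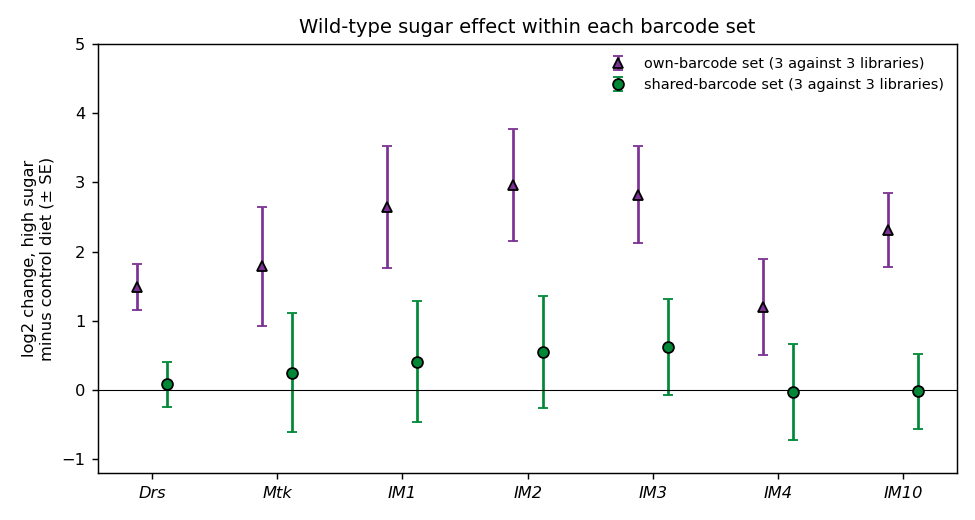
Log2(FPKM + 1) change ± SE of high sugar over control diet in wild type, for own-barcode libraries (triangles, 3 against 3) and shared-barcode libraries (circles, 3 against 3), from limma. Own-barcode changes lay between 1.20 and 2.96, and shared-barcode changes between -0.03 and 0.62.

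Markers of other cells moved with these differences. On high sugar the 25 midgut markers (Jonah proteases, trypsins and lysozymes) summed to 316 to 423 FPKM in knockdown, against 3.24 to 147 FPKM in wild type, with 14 of 16 tested called higher in knockdown (7 of these 14 with each library's trend on transcript length removed). Of the 7 fat body markers 6 were called lower in both settings. Over all tested genes 27.2% were called higher and 33.4% lower in this comparison (574 and 675 of 2321 with the length trend removed). The sum of 8 hemocyte markers was 4.58 to 5.90 FPKM in knockdown on high sugar, against 2.89 to 3.73 FPKM in shared-barcode and 0.282 to 0.619 FPKM in own-barcode wild type. Of the 3 tested only Hemese (He) was called, with 2.28 to 2.68 FPKM in knockdown, against 1.31 to 1.32 FPKM in shared-barcode wild type (0.87 ± 0.28, limma adjusted p = 0.0131), and this call was lost with the length trend removed. Hml, nimC1 and eater ran against the sum, with 0.0252 to 0.0277, 0.073 to 0.0784 and 0.158 to 0.17 FPKM in knockdown, against 0.16 to 0.22, 0.142 to 0.169 and 0.269 to 0.432 FPKM in shared-barcode wild type. Pxn, proPO-A1 and CG8193 went with it, at 0.535 to 0.716, 0.77 to 1.21 and 0.713 to 1.03 FPKM, against 0.278 to 0.38, 0.394 to 0.702 and 0.326 to 0.55 FPKM. In own-barcode wild type nimC1 (listed at 0) and eater (0 to 0.0242 FPKM) lay below knockdown, and Hml (0 to 0.0314 FPKM) overlapped it. Prophenoloxidase 3 (CG42640), a marker of 1 blood cell type, was listed at 0 in all libraries.

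The 6 salivary glue genes summed to 6540 to 6750 FPKM in knockdown on high sugar, against 5.41 to 5880 FPKM in wild type on high sugar, and to 2010 to 4480 FPKM in knockdown on the control diet, against 33.3 to 3570 FPKM in wild type. The genes behind these sums differed, since none was called higher in knockdown on high sugar and Sgs1 was called lower (-3.32 ± 0.40, limma adjusted p = 7.04e-06), with a median log2 change of -0.12. In knockdown between diets none was called higher either, and Sgs1 (-3.57), Sgs4 (-2.85) and Sgs3 (-3.28) were called lower (limma adjusted p = 5e-06, 0.0395 and 0.0496), with a median of -0.95. Over all tested genes 33.4% were called lower between genotypes on high sugar, and 31.1% between diets in knockdown. The 4 tubule and tracheal markers summed to 7.48 to 10.0 FPKM in knockdown on high sugar, against 2.22 to 13.7 FPKM in wild type.

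In the own-barcode wild type, where 5 members were called higher on high sugar, markers of fat body and of other cells moved with the diet as well. Over all tested genes 21.4% were called higher and 12.1% lower in this set. The fat body markers summed to 10500 to 12200 FPKM on high sugar and 5270 to 7160 FPKM on the control diet, with 4 of 7 called higher. Salivary glue genes summed to 5.41 to 18.5 FPKM on high sugar and 33.3 to 591 FPKM on the control diet, with 5 of 6 called lower. The hemocyte sum was 0.282 to 0.619 FPKM on high sugar and 11.4 to 17.5 FPKM on the control diet, with all 3 tested called lower. Of these, proPO-A1 (2.22 to 4.17 FPKM) and CG8193 (2.73 to 4.74 FPKM) passed the minimum mean only through the own-barcode control-diet libraries. Their calls and their place in that count therefore rest on values that the filter used. Midgut markers summed to 3.24 to 4.14 FPKM on high sugar and 6.19 to 105 FPKM on the control diet (2 of 16 called lower), and tubule and tracheal markers to 2.22 to 2.38 FPKM and 15.1 to 23.1 FPKM (the 1 tested called lower). In the shared-barcode wild type the fat body sum was 6900 to 8380 FPKM on high sugar and 8340 to 9570 FPKM on the control diet, and 1 of 7 was called lower, against 4.7% of all tested genes. The part of these markers in the fall of Drs and IM3, in the wild-type sugar effect among own-barcode libraries, and in its difference between barcode sets, was not tested. In bulk tissue, fewer fat body cells in the sample and less RNA of these genes per fat body cell cannot be told apart.

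**Figure D4:**
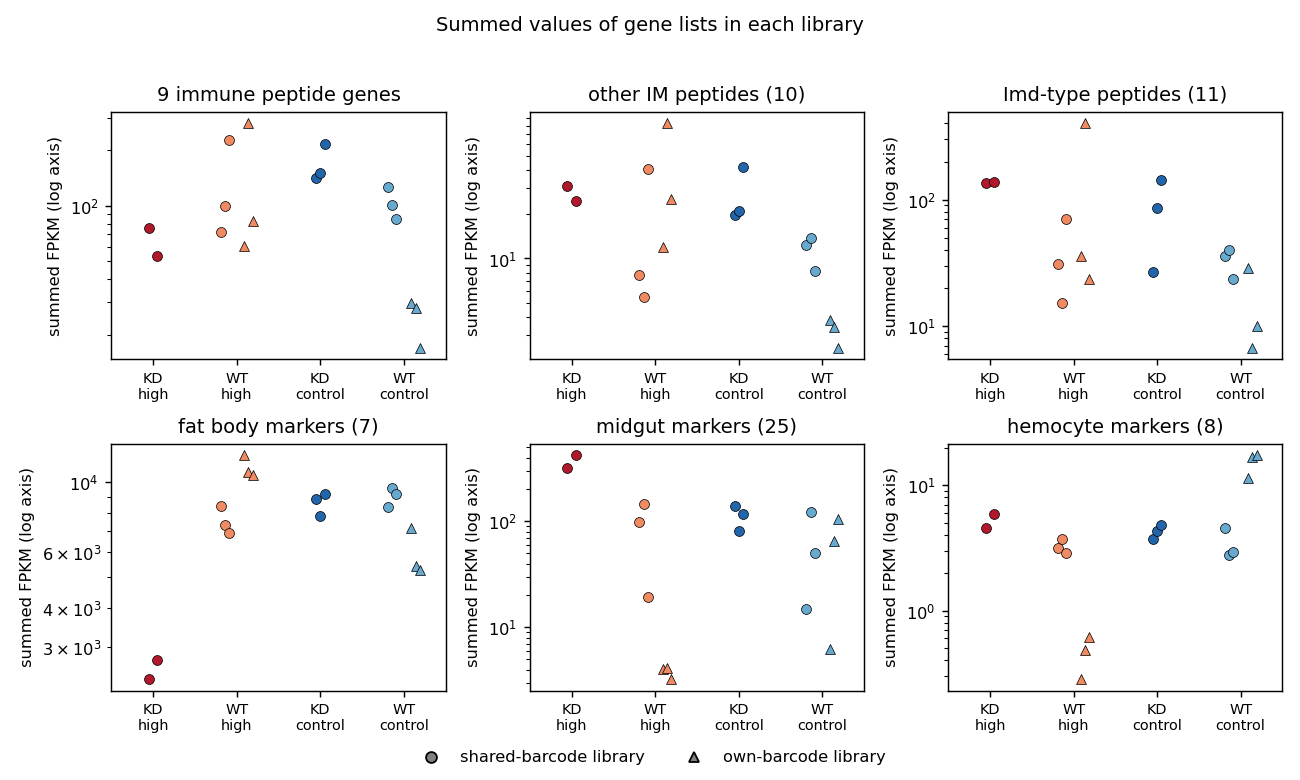
Summed FPKM per library (log axes) of the 9 immune peptide genes, of 10 other IM peptide genes, of 11 Imd-type peptides and of fat body, midgut and hemocyte markers, by group (KD knockdown, WT wild type; circles shared barcode, triangles own barcode). KD high-sugar libraries held 136 and 137 FPKM of Imd-type peptides and 53.7 to 76.3 FPKM of the 9 genes.

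Transcript length moved with the knockdown on high sugar as well. The slope of log2 value on log2 transcript length was -0.863 and -0.889 in the high-sugar knockdown libraries and between -0.533 and -0.047 in the other 15, so short transcripts read relatively high in these 2 libraries. The members are short, with median annotated transcript lengths from 268 bases for Mtk to 1032.5 bases for IM10, and 387 bases for Drs. With each library's length trend removed, the fall of Drs in knockdown on high sugar was -3.42 against wild type and -3.32 against the control diet (limma adjusted p = 1.73e-05 and 3.32e-05), and that of IM3 was -3.01 and -3.17 (0.00683 and 0.00653). Both were larger than without the correction. In that setting IM4 was also called in knockdown between diets (-2.31, limma adjusted p = 0.0189), and IM2 in the interaction (-3.03, limma adjusted p = 0.0384). The IM4 call rests on control-diet knockdown values that the filter used.

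Ratios within libraries show how unevenly the peptides changed. The ratio of Mtk to Drs was 2.16 and 1.98 in the high-sugar knockdown libraries and 0.0226 to 0.575, with a median of 0.180, in the other 15. The ratio of IM3 to IM2 was 0.101 and 0.157 in the high-sugar knockdown libraries and 0.764 to 3.27 in 14 others, IM2 being listed at 0 in the last. IM1 to IM2, in contrast, was 0.420 and 0.685 there and 0 to 0.803 elsewhere, so IM1 and IM2 kept within their usual proportion while IM3 did not. With the length trend removed the log2 difference between IM3 and IM2 was -2.05 and -1.46 in these libraries, against -0.21 to 0.51 in the other 15, and that between Mtk and Drs was 0.78 and 1.0, against -5.06 to -0.93. These ratios are a description and carry no test.

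**Figure D5:**
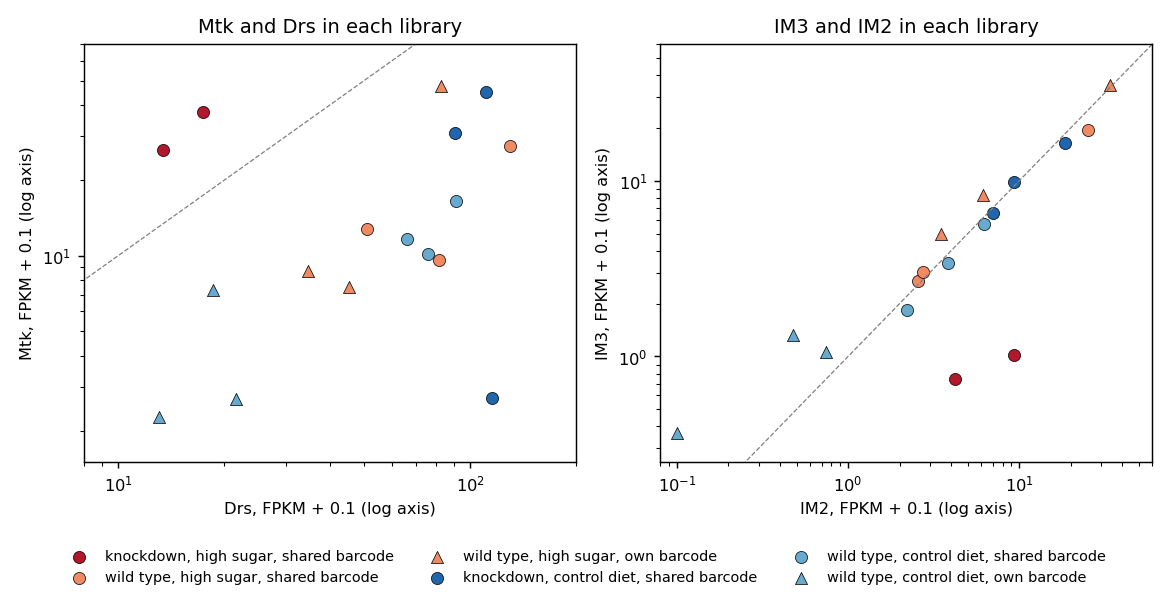
Mtk against Drs and IM3 against IM2 in each of the 17 libraries (FPKM + 0.1, log axes; the dashed line marks equal values, colours give group, triangles own-barcode libraries). The 2 knockdown libraries on high sugar lie above the line for Mtk against Drs, with ratios of 2.16 and 1.98, and farthest below it for IM3 against IM2, at 0.101 and 0.157.

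Among 18 genes of the Toll pathway 12 were measured above the minimum. In knockdown against wild type on high sugar 2 were called higher and 6 lower (4 with the length trend removed), with a median log2 change of -0.54, against 27.2% higher and 33.4% lower among all tested genes. The ligand gene spz averaged 0.232 ± 0.0523 FPKM in knockdown, against 1.58 ± 0.357 FPKM in shared-barcode wild type, and fell by 0.96 ± 0.15 on the log2 scale. The receptor gene Tl had 0.203 ± 0.0382 FPKM, against 1.24 ± 0.235 FPKM (-1.0 ± 0.18), the adaptor gene tub 0.272 ± 0.0856 FPKM, against 1.24 ± 0.0819 FPKM (-0.88 ± 0.12), and the inhibitor gene cact 0.936 ± 0.0516 FPKM, against 2.59 ± 0.506 FPKM (-0.96 ± 0.18; SD, n = 2 and 3; limma adjusted p at most 0.000379). Among the longer transcripts of the list, Tl has a median annotated length of 5129 bases, and with the length trend removed its change was -0.03 (limma adjusted p = 0.892), whereas spz (-0.69), tub (-0.61) and cact (-0.70) were still called (limma adjusted p at most 0.00234). The 2 genes called higher, named after their values were seen, were SPE, the protease that matures Spätzle, with 1.62 ± 0.417 FPKM in knockdown, against 0.569 ± 0.134 FPKM in shared-barcode wild type (0.60 ± 0.19, limma adjusted p = 0.0131), and grass, a protease upstream of it, with 2.35 ± 0.099 FPKM, against 1.04 ± 0.27 FPKM (0.64 ± 0.23, limma adjusted p = 0.0239). Both calls held with the length trend removed. The other 2 genes called lower, likewise named after their values were seen, were nec (-1.01 ± 0.27, limma adjusted p = 0.00491) and GNBP3 (-0.78 ± 0.31, limma adjusted p = 0.0422). With the length trend removed nec was still called (-0.82, limma adjusted p = 0.0121) and GNBP3 was not (-0.62, limma adjusted p = 0.0832). In knockdown between diets 4 genes were called lower and 1, grass, higher, and in the interaction 4 lower and none higher, shares of 12 that are close to the backgrounds of 31.1% and 28.3% lower. In both these 4 were spz, tub, Tl and cact, of which Tl was lost with the length trend removed (-0.05 and -0.40, limma adjusted p = 0.843 and 0.199), and all 3 comparisons share the high-sugar knockdown libraries. In own-barcode wild type 4 Toll pathway genes rose on high sugar and 1 fell, where 21.4% and 12.1% of all genes did; those that rose were the protease gene psh (0.58 ± 0.10), the serpin gene nec (0.83 ± 0.21), the recognition gene PGRP-SD (0.68 ± 0.17) and Tl (0.54 ± 0.16, limma adjusted p = 0.0151). Among shared-barcode wild type PGRP-SA fell (-0.86 ± 0.15, limma adjusted p = 0.00354) and no other was called. None of the 12 was called by limma in wild type over both sets or between genotypes on the control diet, where 3 and 4 had an unadjusted p below 0.05.

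Of 16 Imd pathway genes 3 were measured above the minimum. Relish, the transcription factor of the pathway, averaged 0.317 ± 0.0735 FPKM in knockdown on high sugar, against 2.43 ± 0.468 FPKM in shared-barcode wild type (log2 change -1.44 ± 0.29, limma adjusted p = 0.000556), and was lower than in control-diet knockdown (-1.70 ± 0.30, limma adjusted p = 0.000224). With the length trend removed these changes were -0.78 and -1.05 (limma adjusted p = 0.0297 and 0.00762). The 11 Imd-type peptides summed to 136 and 137 FPKM in knockdown on high sugar, against 30.8, 15.3 and 70.4 FPKM in shared-barcode and 35.8, 400 and 23.8 FPKM in own-barcode wild type on high sugar. Both knockdown libraries thus lay above every wild-type library on that diet except replicate 5. Of the 10 tested none was called by limma in that comparison, with a median log2 change of 1.02 and 1 gene at an unadjusted p below 0.05, where 27.2% of all tested genes were called higher and 33.4% lower. Between diets in knockdown only diptericin B (DptB) was called, with 53.8 and 65.2 FPKM on high sugar, against 1.26, 7.80 and 12.2 FPKM with 0.15 M sucrose (3.23 ± 1.0, limma adjusted p = 0.0117). Among all tested genes 29.2% were called higher there. In own-barcode wild type DptB (2.89 ± 0.79, limma adjusted p = 0.0125) and the Imd pathway gene PGRP-SB1 (1.52 ± 0.4, limma adjusted p = 0.00974) were called higher on high sugar. They were 1 of 10 tested peptides and 1 of 3 tested pathway genes, against 21.4% of all tested genes. Neither was lost with the length trend removed.

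Of the 6 other drosomycin family genes 2 were tested. Drs-l (Drsl1) had 15.1 and 1.42 FPKM in knockdown on high sugar, against 0 to 1.29 FPKM in wild type on high sugar (2.16 ± 0.57, limma adjusted p = 0.00415), with 1 library far above the other, and the call was lost with the length trend removed (1.13, limma adjusted p = 0.127). Only through the library at 15.1 FPKM did Drs-l pass the minimum mean, so its call rests on a value that the filter used. The gene dro5 (Drsl5) was not called between genotypes, and fell on high sugar in own-barcode wild type (-2.83 ± 0.65, limma adjusted p = 0.00472). Of 10 other IM peptide genes 5 were tested. CG15068 (BomS6), a short bomanin, had 10.2 and 11.5 FPKM in knockdown on high sugar, against 1.14 to 4.97 FPKM in wild type (1.55 ± 0.38, limma adjusted p = 0.00249), and the control-diet knockdown libraries had 2.61, 4.89 and 5.67 FPKM (1.18 ± 0.40, limma adjusted p = 0.0183). Neither call held with the length trend removed (0.48 and 0.71, limma adjusted p = 0.288 and 0.135). In own-barcode wild type 4 of the 5 rose on high sugar (3 with the length trend removed, without CG15068), among them CG15065 (BomS5, 2.97 ± 0.74) and CG16836 (BomT2, 1.46 ± 0.36), and CG16836 was the 1 called over both sets (1.01 ± 0.27, limma adjusted p = 0.0224). Over all tested genes 21.4% were called higher in that set (550 of 2321 with the length trend removed) and 9.44% over both sets.

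The genes whose profile over the 17 libraries lay closest to the members' mean profile, by root mean square difference of centred log2(FPKM + 1), were CG15065 (BomS5, 0.49), CG16836 (BomT2, 0.57), CG2217 (0.66), CG33470 (BaraA1, 0.68) and PGRP-SB1 (0.69), where the members' mean profile itself had a root mean square of 1.02. For Drs alone (1.09) they were CG16926 (0.50), CG5028 (Idh3g, 0.51), CG8100 (0.54), CG4306 (0.54) and CG9989 (Sid, 0.55). No gene was on both lists of 5.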

How the data were processed

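RNA of 17 fat body libraries was sequenced from barcoded cDNA. The submitters' processing notes name genome build dm3 and, as tools, TopHat 1.3.2, Bowtie 0.12.7 and Cufflinks 1.1.0. Annotation and settings are not given in the sources used here. The deposited matrix has 1 column per library and no named unit. Because the tools include Cufflinks, the deposited values are read here as FPKM, and an unstated further scaling by the authors is possible. Depth is unknown, so no counting intervals or floors are given, and a 0 is described as listed at 0.

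Tests used log2(FPKM + 1), on which changes of low genes come out too small. Genes had to average 1 FPKM or more over the libraries, which 2383 did, and were fitted with limma 3.58.1 in R 4.3.3 (4 groups plus an additive barcode set term, trended and robust empirical Bayes, 2-sided tests, Benjamini-Hochberg adjustment over all tested genes, threshold 0.05). A second fit had a mean for each group and barcode set. In the knockdown comparisons the set term comes from wild type alone. Errors of FPKM means are SDs over libraries and errors of log2 changes are SEs of the fit, which can differ from ratios of group means. The fit was checked on simulated data.

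The members and gene lists were chosen with earlier results of these data known. All members are named, and of the lists at most 4 genes per comparison with the smallest p among those called. Outside this rule SPE, grass, nec and GNBP3 are also named, as are the hemocyte markers. The 111 list genes all matched. Transcript lengths (97.4% of tested genes) and current symbols come from the supplied Ensembl and RefSeq tables of a newer build. Its coordinates were used only for these lengths and for the order of the bomanin genes. A planned search of promoters for a kappa-B motif was not run, and no sequences are shown. Alternatives were 2 smaller pseudocounts (0.1 and 0.01), no filter, a minimum mean of 5, quantile and upper-quartile scaling, removal of each library's length trend (loess, span 0.5), a replicate block, untrended non-robust variances, no set term, shared-barcode libraries only, and leaving out each library. After the data were seen, the length setting was also applied to the called genes of the lists.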

Additional observations from a re-analysis of the deposited data

Results flagged for a closer look

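Wild-type high-sugar replicate 5 stood apart from the other 5 libraries of its group for Def (7.14 FPKM), IM23 (4.56 FPKM), IM4 (7.53 FPKM) and IM10 (34.8 FPKM), each the highest value of the group by more than the usual limit for a gap within 6 samples. In all, 17 pairs of member and wild-type group were examined in this way. The 4 that stood apart all came from this 1 library, so they are not independent and their number cannot be set against a chance rate. Def was listed at 0 in the other 5 libraries of the group.

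The sugar effect differed between knockdown and wild type for Drs (interaction of -3.50 on the log2 scale), IM3 (-4.37) and IM4 (-2.41). IM4 had passed the filter only through the control-diet knockdown libraries, and its call was lost in 6 of 11 other settings. Within wild type, the sugar effect was called different between own-barcode and shared-barcode libraries for Drs (1.41) and IM10 (2.33). Both calls lay at the threshold (limma adjusted p = 0.0499 and 0.048). Each was lost in 4 of 9 other settings and on leaving out most single libraries. Among all tested genes 13.7% were called higher in that difference.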

How the results depend on the processing

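The number of members called was checked under up to 12 settings besides leaving out libraries. In wild type between diets it was 1, and it became 2 with a pseudocount of 0.01 and 0 with no filter, upper-quartile scaling, a replicate block, no set term, or shared-barcode libraries only. In knockdown against wild type on high sugar it was 2 and became 1 with the replicate block (IM3 at -2.17, limma adjusted p = 0.0508). The difference between barcode sets had 2 members called and 0 with no filter, quantile normalisation, upper-quartile scaling or the replicate block. The other 5 counts stayed within 1.5 times. Calls over all genes moved with these settings as well, over 83 to 440 in wild type between diets and 243 to 840 in the difference between sets. In knockdown against wild type on high sugar they went from 1443 to 1344 with the replicate block. Replicate numbers did not pair libraries (18 same-numbered pairs, correlations from -0.24 to 0.223, 5 over 0.1). Leaving out single libraries gave 0 to 3 members in wild type between diets, 0 to 1 in knockdown against wild type on the control diet, 1 to 2 on high sugar, 1 to 3 in knockdown between diets, 2 to 3 in the interaction, 0 in the shared-barcode set, 3 to 6 in the own-barcode set and 0 to 4 in the difference between sets. Calls over all genes moved in such fits too, over 260 to 393 in wild type between diets and 84 to 145 between genotypes on the control diet. They ranged over 92 to 185 in the shared-barcode set, 606 to 848 in the own-barcode set and 343 to 534 in the difference between sets. Single-library fits added Drs (without wild-type high-sugar replicate 1), IM2 (without 1 or 2) and IM10 (without 2) in wild type. The causes were not tested.

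Directions reversed only among changes that were not called. With shared-barcode libraries only, IM4 and IM10 in wild type between diets were -0.03 and -0.02. In knockdown against wild type on high sugar, Mtk was -0.27 with the length trend removed, IM2 was 0.06 in both within-set fits, IM4 was 0.81 with a pseudocount of 0.01, and IM10 was 0.01 and 0.02 with pseudocounts of 0.1 and 0.01, 0.13 with the replicate block and 0.52 in both within-set fits. In knockdown between diets IM10 was -0.08 with the length trend removed. In the interaction Mtk was 0.23 with the replicate block and 0.65 in both within-set fits, where IM10 was 0.15. In the shared-barcode set IM4 was 0.05 and 0.02, and IM10 0.02 and 0.02, with quantile normalisation and with the length trend removed. Over single-library fits the sign also changed for IM10 on high sugar (-0.54 to 0.15), for Mtk (-0.24 to 1.60), IM1 (-0.82 to 0.08) and IM10 (-0.06 to 0.24) in knockdown between diets, for Mtk in the interaction (-1.26 to 0.58), and in the shared-barcode set for Drs (-0.25 to 0.42), Mtk (-0.16 to 0.55), IM1 (-0.51 to 0.88), IM2 (-0.42 to 1.05), IM3 (-0.19 to 1.06), IM4 (-0.52 to 0.22) and IM10 (-0.63 to 0.40).

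Over all genes, upper-quartile scaling moved the median log2 change by -0.11 in wild type between diets, -0.17 between genotypes on the control diet, -0.21 in the own-barcode set and -0.25 in the difference between sets, and quantile normalisation moved the last by -0.12. The share of calls that were higher was then 40.9%, 19.2%, 35.8% and 38.9% (54.0% with quantile normalisation), against 60.8%, 53.7%, 63.9% and 68.9%. All 7 tested members stayed above the all-gene median in these 4 comparisons. Counts over all genes ranged most with the filter: 1443, 1436 and 1235 calls on high sugar between genotypes, in knockdown between diets and in the interaction became 3982, 3996 and 3068 without it and 472, 485 and 413 with a minimum mean of 5. In wild type 370 calls became 83 with shared-barcode libraries only. With unknown depth, values near 0 FPKM (Def, IM23, IM4) limit what can be seen.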
